A study of Mus musculus with 19 samples.

Results

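Msx1, Bmp4, Bmp7, Otx1, Wfdc1 and Mitf are 6 genes known as markers of the ciliary margin, the outer rim of the retina next to the pigment epithelium. They were taken by name, through their Ensembl identifiers, from the 47069 genes listed in the RNA-seq count tables of a study of ipsilateral and contralateral retinal ganglion cells (iRGCs and cRGCs) of the mouse embryo. They were selected on the levels in these same libraries, since the names were proposed with the difference between the populations already known, and that difference is described here without a test.

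Both populations came from retinas of embryos at embryonic stage E16.5, of the strain labelled C57/DBA F1, with both sexes pooled and a genotype labelled WT. The embryos carried a CAG-[Stop]-Sun1-GFP cassette in the Rosa26 locus, so that cells with a history of Cre recombinase activity, and their descendants, make a nuclear envelope protein fused to GFP. For iRGCs, GFP-positive cells were sorted from retinas of the Slc6a4-Cre line, which drives Cre with the regulatory sequences of the serotonin transporter. For cRGCs, they were sorted from retinas of the Pou4f2-Cre line, which marks most RGCs, after the ventrotemporal region had been cut away. The Cre line, the dissection and the population changed together, so their parts in any difference cannot be told apart. Polyadenylated RNA was sequenced in 3 libraries per population, described by the submitters as biological replicates without the number of embryos behind each, so the spread between libraries may be partly technical. The depth on genes was 28193178 to 33638083 reads per library.

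The ciliary margin gives rise to the epithelia of the ciliary body and the iris, and in the embryo it holds cells that still divide and can contribute neurons to the retina. BMP and Wnt signals pattern it. In BMP signalling, a secreted ligand joins type I and type II receptors at the cell surface, Smad proteins carry the signal to the nucleus, and genes such as Msx1 and the Id genes are switched on. Bmp4 and Bmp7 encode ligands, Msx1 and Otx1 encode homeodomain transcription factors, Mitf encodes the transcription factor that directs pigment cell genes, and Wfdc1 encodes a secreted protein with a WAP domain.

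Levels are CPM, counts per 1000000 reads of the library total after edgeR's TMM scaling, and are given in the order of replicates 1, 2 and 3. In a bulk library, more cells that express a gene and more RNA of it per cell cannot be told apart. Log2 fold changes compare iRGCs with cRGCs in a fit across all tested genes, carry their standard error (SE), and stand here as a description for the 6 genes.

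The 6 genes did not share one pattern, and 1 library decided much of what they showed. Msx1 and Wfdc1 were higher in all 3 iRGC libraries than in any cRGC library, Bmp4 was low and leaned to iRGCs, Otx1 stood out in iRGC replicate 2 alone, Bmp7 was highest in cRGC replicate 3, and Mitf was low in both populations. The number of genes in which every iRGC library lay above every cRGC library was 2 of 6. The reverse held for 0 of 6. Among the 15941 genes that passed the filter on low counts these shares were 27.1% and 28.2%, and nothing is read from the comparison, since these genes were chosen with it known. All 6 genes passed that filter, but Msx1 reached its level of 0.332 CPM (before TMM scaling) in 3 iRGC libraries and in 0 cRGC libraries, and Wfdc1 and Bmp4 in 3 iRGC libraries and 1 cRGC library each. Msx1 thus passed only through the iRGC libraries, where it was high, and had to differ.

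**Figure D1:**
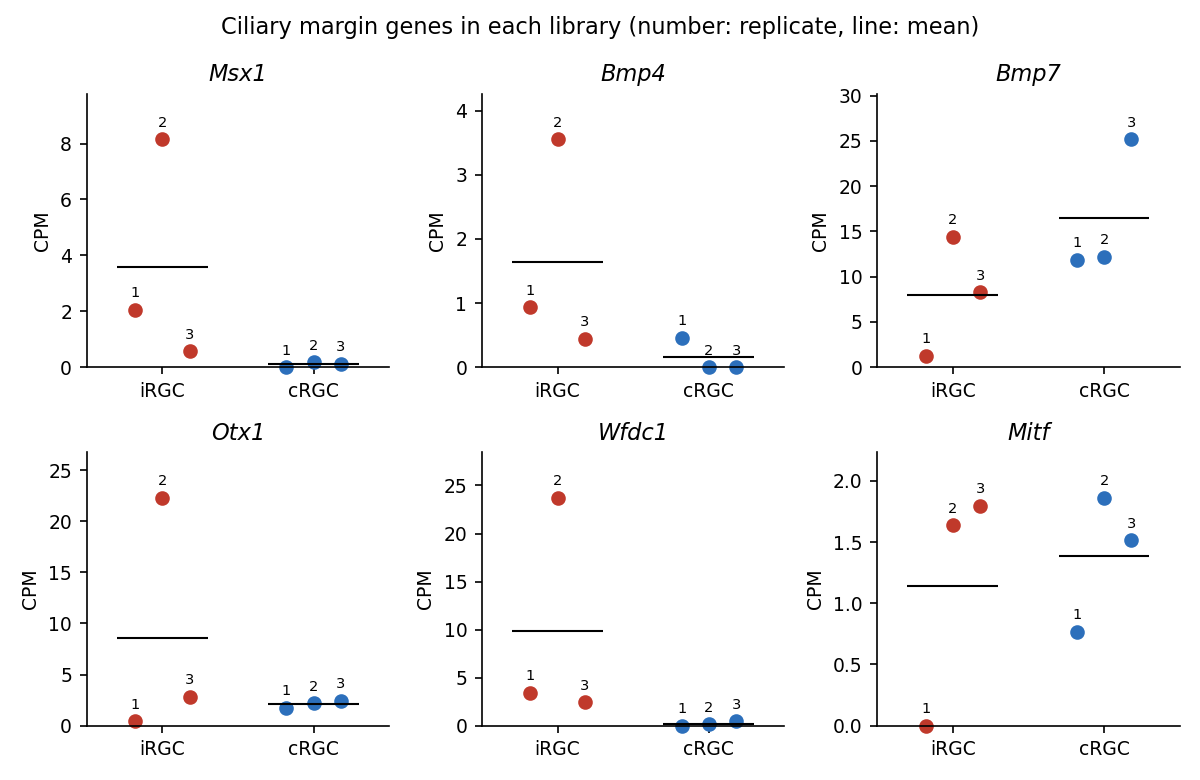
CPM of each of the 6 genes (vertical axis, starting at 0) in the 3 iRGC libraries (red) and the 3 cRGC libraries (blue), with the replicate number beside each point and a line at the mean. Replicate 2 is the highest iRGC library for every gene except Mitf, and Bmp7 is highest in cRGC replicate 3 at 25.2 CPM.

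RefSeq promoter sequences of GRCm38.p6 were at hand for 3 of the 6 genes, Msx1, Bmp4 and Mitf. The 250 bases before a start are shown for Msx1 and Bmp4, whose levels were alike, and for the most downstream of 3 listed starts of Mitf, whose levels were not. The regions are chr5:37824586-37824835 on the minus strand, chr14:46390670-46390919 on the minus strand and chr6:97991533-97991782 on the plus strand. Each runs 5′ to 3′ toward the start, and capitals mark the searched motifs.
Msx1: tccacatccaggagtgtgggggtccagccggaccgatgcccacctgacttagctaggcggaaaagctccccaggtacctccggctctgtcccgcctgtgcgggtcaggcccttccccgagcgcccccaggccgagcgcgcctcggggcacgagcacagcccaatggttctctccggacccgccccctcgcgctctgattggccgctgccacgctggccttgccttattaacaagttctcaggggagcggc
Bmp4: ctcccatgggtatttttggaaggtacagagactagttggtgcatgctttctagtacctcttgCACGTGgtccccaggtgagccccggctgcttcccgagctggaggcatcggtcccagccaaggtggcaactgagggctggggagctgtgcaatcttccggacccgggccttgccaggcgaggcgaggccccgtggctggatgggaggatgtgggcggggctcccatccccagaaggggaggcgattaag
Mitf: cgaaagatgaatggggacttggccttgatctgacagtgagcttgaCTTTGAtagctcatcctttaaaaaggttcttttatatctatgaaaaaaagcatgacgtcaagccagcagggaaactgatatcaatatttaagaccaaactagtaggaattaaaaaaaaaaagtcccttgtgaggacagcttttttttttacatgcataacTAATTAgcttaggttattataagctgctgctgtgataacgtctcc

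The motifs were searched on both strands of 300-base windows, from 250 bases before to 50 bases after each start. They were TAATCC, known as a core of Otx proteins, TAATTA, a core of many homeodomain proteins, CATGTG and CACGTG, E-box cores that MITF can bind, TCAAAG, the core of TCF and LEF proteins, and GGCGCC, a GC-rich Smad element. No 2 of these 6-base motifs share the same letters on either strand, though matches could overlap at their ends. Of 32851 promoter windows, 7.06% held TAATCC, 5.29% TAATTA, 14.2% CATGTG, 7.15% CACGTG, 16.0% TCAAAG and 11.9% GGCGCC. The window of Bmp4 held CACGTG 188 bases before the start, and that of Msx1 held none of the motifs. The window of the downstream Mitf start held TCAAAG, read as CTTTGA, 205 bases before the start and TAATTA 45 bases before it. The first Mitf window held none of the motifs, and the second held TAATCC, read as GGATTA, 119 bases before the start and TCAAAG, read as CTTTGA, just after it. The window of Msx1 was 70.0% G and C, that of Bmp4 64.0%, and those of the Mitf starts 62.7%, 55.7% and 40.0%. The counts were made per gene and do not tell the Mitf starts apart.

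Among the ligands, Bmp4 (ENSMUSG00000021835) lies at chr14:46383520-46390669 on the minus strand of GRCm38. It had 0.933, 3.55 and 0.441 CPM in iRGCs, from 29, 115 and 14 reads. It had 0.461, 0 and 0 CPM in cRGCs, from 12, 0 and 0 reads. The highest cRGC library lay just above the lowest iRGC library, so the populations overlapped. A count of 0 still allows 3 reads, or 0.104 and 0.0968 CPM in cRGC replicates 2 and 3. The log2 fold change was 3.41 (SE 1.69), and 2.15 (SE 2.01) without iRGC replicate 2. With the replicate number as a block it was 4.72. Without cRGC replicate 1, which held all 12 cRGC reads, it was 8.68, a value set by the fit's prior count against libraries at 0. Of the exonic bases of Bmp4, 3.96% are shared with Gm15217 on the opposite strand, and since the strand setting of the counting is not given in the sources used here, reads there cannot be assigned with certainty.

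Bmp7 (ENSMUSG00000008999, chr2:172868012-172940321, minus strand) is the other ligand, and it leaned the opposite way. It had 1.25, 14.4 and 8.29 CPM in iRGCs and 11.9, 12.2 and 25.2 CPM in cRGCs. iRGC replicate 1 was the lowest of all libraries, but iRGC replicate 2 exceeded 2 of the 3 cRGC libraries. The means were 7.98 ± 6.58 and 16.4 ± 7.60 CPM (SD, n = 3), a log2 fold change of -1.04 (SE 0.69). It was -1.78 (SE 0.74) without iRGC replicate 2, -0.54 without iRGC replicate 1 and -0.59 without cRGC replicate 3. Bmp7 alone made up 15.5%, 19.5% and 50.7% of the summed CPM of the 6 genes in the iRGC libraries. In the cRGC libraries it made up 79.8%, 73.6% and 84.7%, so most reads from these genes in cRGCs came from 1 ligand.

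Msx1 (ENSMUSG00000048450), which encodes a repressor induced by BMP signals in many tissues, lies at chr5:37820485-37824583 on the minus strand. It had 2.06, 8.16 and 0.568 CPM in iRGCs, from 64, 264 and 18 reads. It had 0, 0.173 and 0.129 CPM in cRGCs, from 0, 5 and 4 reads. The populations did not overlap, although iRGC replicate 3 came close to the cRGC libraries. The log2 fold change of 5.08 (SE 1.33) became 3.63 (SE 1.59) without iRGC replicate 2, which alone held 75.7% of the summed iRGC level.

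Otx1 (ENSMUSG00000005917, chr11:21994764-22002897, minus strand) had 0.450, 22.3 and 2.84 CPM in iRGCs and 1.77, 2.17 and 2.45 CPM in cRGCs. One iRGC library was far above all others, one lay slightly above the cRGC libraries and one below them. iRGC replicate 2 had 13.6 times the mean of the other 2 iRGC libraries. The log2 fold change was 2.00 (SE 1.07) with all libraries and turned to -0.37 (SE 0.90) without replicate 2. It was 0.57 by limma voom and 0.54 with the replicate number as a block.

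Wfdc1 (ENSMUSG00000023336, chr8:119666365-119688222, plus strand) had 3.41, 23.7 and 2.43 CPM in iRGCs, from 106, 768 and 77 reads. It had 0, 0.173 and 0.452 CPM in cRGCs, from 0, 5 and 14 reads. Every iRGC library lay above every cRGC library, also without replicate 2, where the log2 fold change was 3.77 (SE 1.34) in place of 5.50 (SE 1.22). Wfdc1 had the highest level per kilobase of exon of the 6 genes in iRGCs, 6.41 CPM per kilobase, above that of 54.2% of tested genes, against 0.135 CPM per kilobase in cRGCs. That mean rested on iRGC replicate 2, with 2.22, 15.4 and 1.58 CPM per kilobase in the 3 iRGC libraries, and in iRGC replicate 3 Bmp7 was higher per kilobase at 2.06.

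Mitf (ENSMUSG00000035158, chr6:97807052-98021349, plus strand) had 0, 1.64 and 1.80 CPM in iRGCs and 0.769, 1.86 and 1.52 CPM in cRGCs. The populations overlapped, and the library that departed was iRGC replicate 1, with 0 reads where the other iRGC libraries had 53 and 57. At the depth of that library a count of 0 allows up to 0.0965 CPM. The log2 fold change was -0.27 (SE 1.30) and turned to 0.31 without iRGC replicate 1. It was -0.61 without iRGC replicate 2, -1.85 by limma voom and -1.21 with the replicate number as a block.

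**Figure D2:**
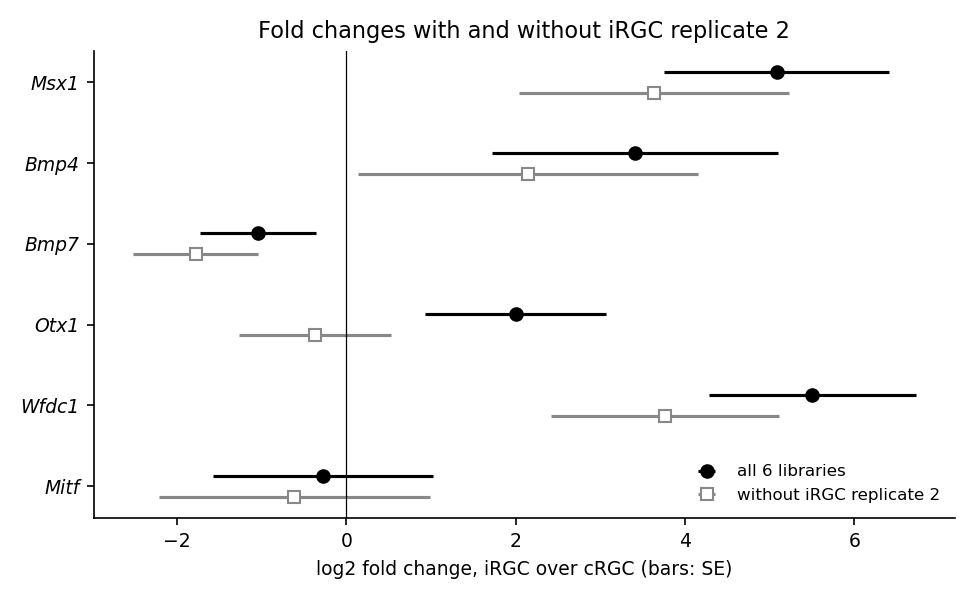
Log2 fold change of iRGCs over cRGCs (horizontal axis) of the 6 genes, with SE bars, from all 6 libraries (filled circles) and without iRGC replicate 2 (open squares). Msx1 and Wfdc1 stay right of 0 in both fits, Bmp7 stays left of 0, and Otx1 moves from 2.00 to -0.37.

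Per kilobase of exon, the mean iRGC levels ran from Wfdc1 at 6.41 CPM per kilobase through Bmp7 at 1.99, Otx1 at 1.57, Msx1 at 1.16 and Bmp4 at 0.731 to Mitf at 0.185. The ranges of neighbours in this order overlapped between libraries, so the order is that of the means only. In cRGCs Bmp7 came first at 4.09 CPM per kilobase, above 45.7% of tested genes, and its lowest cRGC library at 2.96 was above the highest of any other of the 6 genes, Otx1 at 0.452. The other 5 genes lay between 0.0325 for Msx1 and 0.393 for Otx1, and each exceeded at most 13.4% of tested genes. The summed CPM of the 6 genes was 8.11, 73.8 and 16.4 in iRGCs and 14.9, 16.6 and 29.8 in cRGCs. Only iRGC replicate 2 therefore stood above the cRGC libraries in the sum.

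The median log2 fold change of the 6 genes was 2.71, and 0.89 without iRGC replicate 2, while the medians over all tested genes were -0.00 and -0.03. iRGC replicate 2 was the highest of the 6 libraries for Msx1, Bmp4, Otx1 and Wfdc1. It was highest for 16.3% of all tested genes, and iRGC replicates 1 and 3 were highest for 21.4% and 14.9%. These shares are of all tested genes, including those highest in a cRGC library. For genes higher in iRGCs they are therefore no like measure. iRGC replicate 2 held 60.1% of the summed iRGC CPM of Bmp7, 72.1% of that of Bmp4, 80.3% of that of Wfdc1 and 87.2% of that of Otx1.

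Compared over the 6 libraries as log2(CPM + 0.5), with each gene's mean removed, the members closest to each other were Msx1 and Wfdc1, with a root mean square difference of 0.60. Msx1 and Bmp4 followed at 0.64 and Bmp7 and Mitf at 0.68, while Bmp7 and Wfdc1 were farthest apart at 2.47. Among 11513 other tested genes with a mean of at least 5 CPM, the nearest to Msx1 was Apold1 at 0.20, with 4.50, 22.3 and 1.86 CPM in iRGCs and 0.730, 1.24 and 0.645 CPM in cRGCs. The next nearest to Msx1 were Rhoj, a small GTPase, and Unc5b, a netrin receptor.

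The gene nearest to Wfdc1 was the transcription factor gene Ets1 at 0.24, followed by Aldh1a1, which encodes a retinoic acid synthesizing enzyme of the retina, at 0.33 and the growth factor gene Igf2 at 0.42. Aldh1a1 had 147, 532 and 103 CPM in iRGCs and 10.0, 20.3 and 30.5 CPM in cRGCs, so this pattern was not limited to genes with few reads. Bmp4 was nearest to the basement membrane collagen gene Col4a2 at 0.28, then to Abca1 at 0.39 and Nr4a1 at 0.40. Bmp7 was nearest to Dach2 at 0.19 and then to Lmo2 at 0.39 and Lrfn2 at 0.44, all higher in all cRGC libraries than in iRGC replicate 1. Mitf was nearest to Zdhhc12 at 0.11, Gas2l1 at 0.30 and Cyp2j6 at 0.30, all also lowest in iRGC replicate 1. Otx1 had no close neighbour: its nearest gene, Egfl7, which endothelial cells secrete, was 0.62 away, and Neat1 and Arrdc3 were 0.84 and 0.85 away. The distances rest on the same 6 libraries, whose depths and populations differ, and are a description.

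To place Bmp4, Bmp7 and Msx1 within their pathway, 35 other BMP pathway genes were examined, of which 31 were tested. Here the call was made by edgeR's quasi-likelihood test at a Benjamini-Hochberg adjusted p under 0.1, a threshold that 46.4% of all tested genes passed in either direction. In iRGCs, 23.3% of the 15941 tested genes passed as higher and 23.1% as lower. Of the 31 genes, 13 were higher in iRGCs, 10 were lower and 8 did not pass, with a median log2 fold change of 0.49. Without iRGC replicate 2, 12 of 32 tested were higher and 7 lower, against 19.8% and 20.2% of all tested genes.

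Among 7 other BMP family ligands, 5 were tested and 2 passed, both lower in iRGCs, beside 23.1% of all tested genes called lower. Bmp6 had 0.740, 1.27 and 2.37 CPM in iRGCs and 7.11, 10.3 and 4.97 CPM in cRGCs, and a log2 fold change of -2.35 (SE 0.54, edgeR adjusted p = 0.00771), with no overlap. Gdf11, the most abundant of them, which limits the number of RGCs formed, had a log2 fold change of -0.50 (SE 0.13, edgeR adjusted p = 0.0173). None passed as higher by edgeR, where 1 ligand had an unadjusted p under 0.05. DESeq2 called 1 ligand higher and limma voom 0. Bmp3 at 2.43 (SE 1.07), Bmp2 at 1.08 (SE 0.93) and Gdf6 at 0.49 (SE 0.31) were not called. Per kilobase of exon, Gdf11 had 16.2 CPM in iRGCs and 22.8 in cRGCs and Gdf6 had 4.01 and 2.85, all above Bmp4 in the same population at 0.731 and 0.0684. Bmp5 and Bmp8a were too low to test.

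Of 6 receptors, 2 were higher and 2 lower in iRGCs, beside 23.3% and 23.1% of all tested genes. The type I receptors Bmpr1a and Bmpr1b were higher and the type II receptors Bmpr2 and Acvr2a lower, while Acvr1 at -0.09 (SE 0.16) and Acvr2b at -0.02 (SE 0.17) were not called. Bmpr1b had 39.0, 63.8 and 34.8 CPM in iRGCs and 7.30, 11.1 and 7.71 CPM in cRGCs, and a log2 fold change of 2.39 (SE 0.28, edgeR adjusted p = 0.000327). Bmpr1a had 204, 167 and 167 CPM in iRGCs against 73.7, 94.1 and 73.9 CPM in cRGCs, and a log2 fold change of 1.15 (SE 0.14, edgeR adjusted p = 0.000389). The decreases of Bmpr2 and Acvr2a were smaller, at -0.48 (SE 0.10, edgeR adjusted p = 0.00373) and -0.65 (SE 0.16, edgeR adjusted p = 0.0125). All 4 calls stood without iRGC replicate 2.

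Of the 4 Smad transducers, Smad5 at 0.65 (SE 0.15), Smad9 and Smad4 were higher and Smad1 lower at -0.48 (SE 0.14). Beside them, 23.3% of all tested genes were called higher and 23.1% lower. Without iRGC replicate 2, 1 of the 4 was higher and 1 lower, against 19.8% and 20.2% of all tested genes. Smad9 at 1.53 (SE 0.50) rested on 2.96 to 5.44 CPM in iRGCs.

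Of the 12 tested inhibitors, 5 were higher and 5 lower, beside 23.3% and 23.1% of all tested genes. The largest rise was that of Smad6, an inhibitory Smad that BMP signals induce, with 12.3, 13.6 and 15.5 CPM in iRGCs and 1.27, 2.66 and 1.39 CPM in cRGCs. Its log2 fold change was 2.96 (SE 0.37, edgeR adjusted p = 0.000418). Smad7, a further inhibitory Smad, and Bambi, a receptor without a kinase domain, also rose, by 1.20 (SE 0.26) and 1.74 (SE 0.21), and are named after their values were seen. The most abundant inhibitor, Twsg1, rose by 0.61 (SE 0.16). Bmper, which encodes a secreted BMP-binding protein, had the largest decrease at -2.45 (SE 0.31), with 4.12, 6.18 and 5.74 CPM in iRGCs against 38.3, 30.9 and 18.4 CPM in cRGCs.

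The BMP target genes Id1, Id2 and Id3, which encode inhibitors of basic helix-loop-helix transcription factors, were higher in every iRGC library. Id1 had 182, 239 and 170 CPM in iRGCs and 11.6, 45.9 and 29.3 CPM in cRGCs, and a log2 fold change of 2.77 (SE 0.41, edgeR adjusted p = 0.000937). Id2 rose by 2.88 (SE 0.34, edgeR adjusted p = 0.000349) and Id3 by 3.15 (SE 0.35, edgeR adjusted p = 0.000284). Id4 at 0.46 (SE 0.22) was not called with all libraries and was called without iRGC replicate 2, and Msx2, the paralog of Msx1, had at most 0.495 CPM and was not tested. Of the 5 BMP targets, Id1 and Msx2 were highest in iRGC replicate 2, as Msx1 and Bmp4 were, and Id2, Id3 and Id4 were not.

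**Figure D3:**
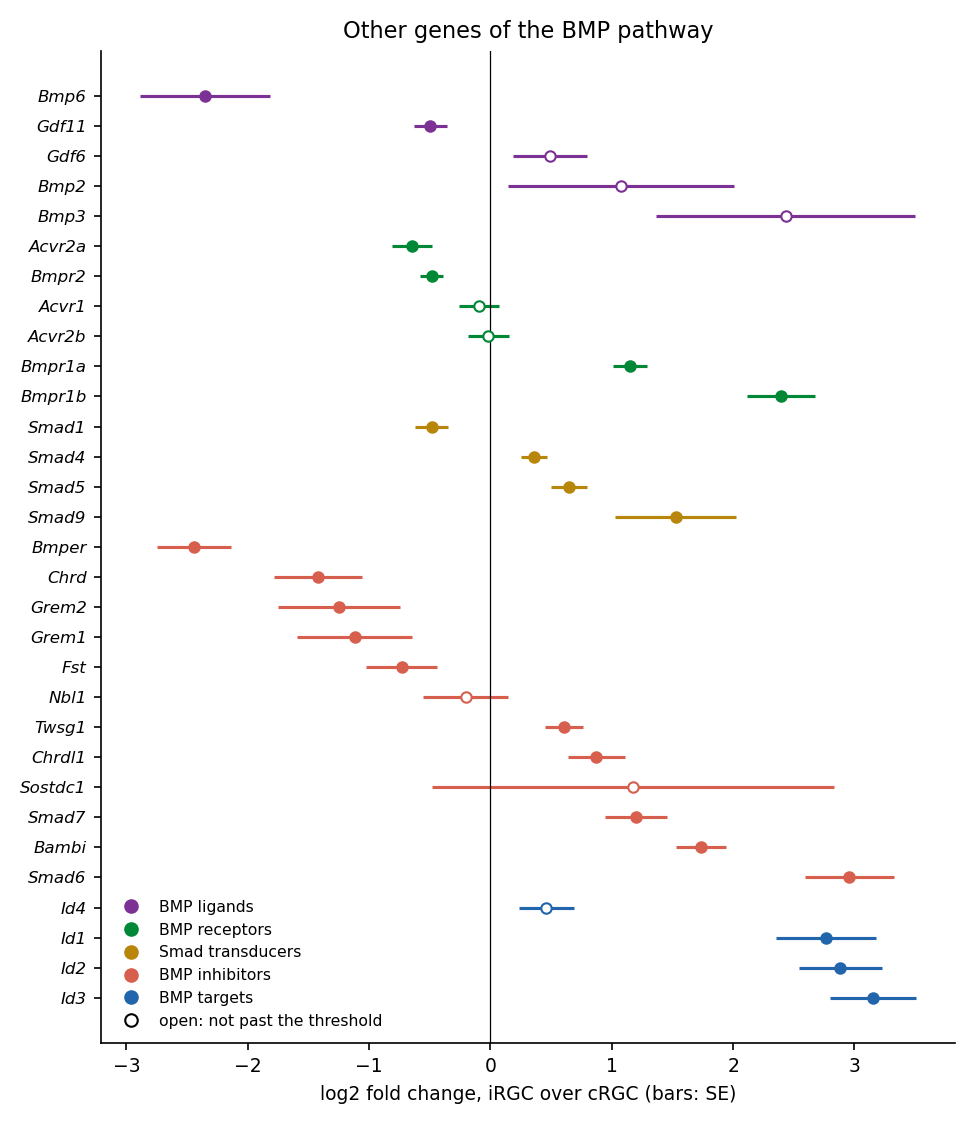
Log2 fold change of iRGCs over cRGCs (horizontal axis) with SE bars of the 31 tested BMP pathway genes other than the 6 ciliary margin genes, coloured by role, with open circles for genes not past the threshold. Id1, Id2, Id3 and Smad6 lie farthest right among called genes, and Bmper and Bmp6 farthest left.

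**Figure D4:**
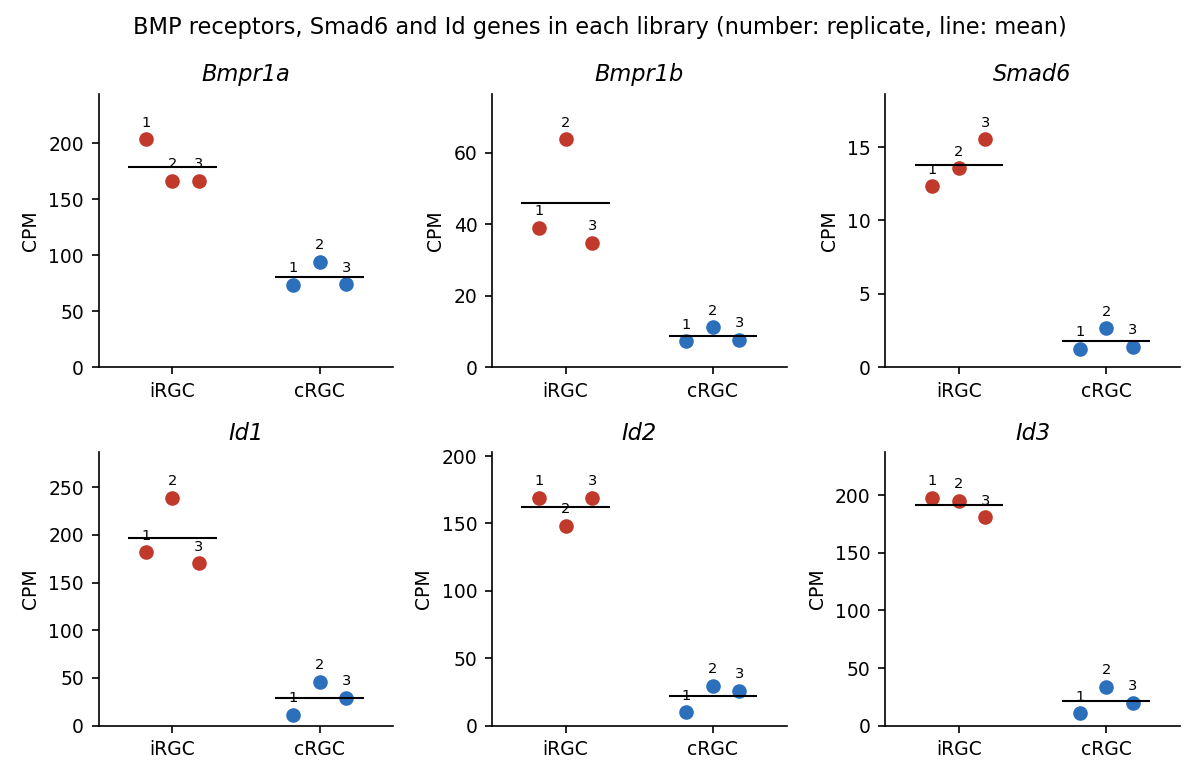
CPM (vertical axis, starting at 0) of Bmpr1a, Bmpr1b, Smad6, Id1, Id2 and Id3 in the 3 iRGC (red) and 3 cRGC (blue) libraries, with replicate numbers and a line at the mean. In each panel the 3 iRGC libraries lie above the 3 cRGC libraries.

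Retinal progenitors also express Id genes, and progenitor markers moved in the same direction. Of 16 progenitor genes 14 were higher in iRGCs and 0 lower, beside 23.3% and 23.1% of all tested genes, with a summed level of 10519, 9929 and 8839 CPM in iRGCs and 2344, 3438 and 3124 CPM in cRGCs. The most abundant was Ccnd1, a G1 cyclin, Sfrp2 had the largest log2 fold change at 2.92 (SE 0.54) and Pax6 the smallest at -0.11 (SE 0.12), and Sox2 was at 0 in no library. Of 12 RGC markers, with a sum of 2855, 4075 and 5954 CPM in iRGCs and 15195, 13971 and 17085 CPM in cRGCs, 11 were lower in iRGCs and all were detected in every library. Among them the tubulin gene Tubb3 was the most abundant, Pou4f1 fell most, at -2.28 (SE 0.28), and Pou4f2 least of the tested markers, at -1.15 (SE 0.23). According to the paper, Cre of the Pou4f2-Cre line was targeted into the Pou4f2 locus itself. For Pou4f2 the altered locus and the population therefore cannot be told apart. The part of progenitor RNA in the levels of the ciliary margin and BMP genes was not tested. Of the 16 progenitor genes, 5 were highest in iRGC replicate 2, beside 16.3% of all tested genes. The progenitor sum there was 94.4% of that of iRGC replicate 1.

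A further 10 genes known from the ciliary margin were compared, of which 9 were tested. In iRGCs 5 were higher and 0 lower, with a median log2 fold change of 1.61, against 23.3% and 23.1% of all tested genes called higher and lower. Without iRGC replicate 2 the counts were 4 and 0, against 19.8% and 20.2%. By limma voom the count of higher genes was 3, with Gja1 (limma adjusted p = 0.25) and Ccnd2 (limma adjusted p = 0.137) not called, and 0 were lower at an unadjusted p under 0.05 by edgeR, DESeq2 or limma voom. Gja1, which encodes connexin 43, had 23.3, 99.2 and 4.98 CPM in iRGCs and 1.08, 0.449 and 0.678 CPM in cRGCs, and a log2 fold change of 5.86 (SE 1.05, edgeR adjusted p = 0.00223). Ccnd2, a cyclin gene of the margin, had 37.6, 97.6 and 9.81 CPM in iRGCs and 0.231, 2.55 and 5.68 CPM in cRGCs, and a log2 fold change of 4.08 (SE 1.00, edgeR adjusted p = 0.0109). Without iRGC replicate 2 their log2 fold changes were 4.26 and 3.05. Both were highest in iRGC replicate 2 and lowest of the iRGCs in replicate 3, as Msx1 and Wfdc1 were.

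Col9a1, a collagen gene, rose by 1.61 (SE 0.24) and Zic1, a zinc finger transcription factor gene, by 1.32 (SE 0.22), with smaller spread between libraries. Col9a1 had 260, 325 and 286 CPM in iRGCs and 95.6, 130 and 60.6 CPM in cRGCs. Wls, which encodes the carrier that lets cells secrete Wnt proteins, rose by 3.87 (SE 1.20) at 1.01 to 3.99 CPM in iRGCs, but was not called without iRGC replicate 2 (edgeR adjusted p = 0.103). With 0, 11 and 6 reads in cRGCs, it passed the filter on low counts through the iRGC libraries, where it was high. Its call, counted among the 5 higher genes above, is therefore a description only. Wnt2b, the Wnt ligand of the margin, at -1.01 (SE 1.35), the Wnt target Axin2 at -0.23 (SE 0.23), Cdh3 at 0.17 (SE 0.38) and the water channel gene Aqp1 at 1.82 (SE 1.08) were not called. Of the 10 genes, 6 were highest in iRGC replicate 2, beside 16.3% of all tested genes.

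Mitf is also the master regulator of melanin genes, so these were read beside it. Of 17 pigment and pigment epithelium genes 10 were tested, and 3 were higher in iRGCs and 0 lower by edgeR, the first near the 23.3% of all tested genes called higher and the second against 23.1% called lower. By edgeR 0 were lower at an unadjusted p under 0.05, and DESeq2 and limma voom each called 1 lower. The 3 were Otx2 at 2.37 (SE 0.28), Rlbp1 at 2.44 (SE 0.60) and Trpm1 at 3.27 (SE 1.03). Trpm1, the one call in the pigment gene list, overlapped between the populations and was not called without iRGC replicate 2, at 2.00 (SE 1.06, edgeR adjusted p = 0.198). The smallest values were Lrat at -1.78 (SE 1.27) and, among the pigment genes, Tyrp1 at -0.05 (SE 1.27), and neither was called. Otx2 and Rlbp1 are not particular to pigment cells, since photoreceptor precursors express the first and glia the second. The melanin enzyme gene Tyr had 0, 1.21 and 0 CPM in iRGCs and 0, 0 and 0.323 CPM in cRGCs, and Slc45a2 was at 0 in all 6 libraries. The pigment gene sum of 8.17, 27.4 and 2.68 CPM in iRGCs, against 2.58, 4.07 and 1.39 CPM in cRGCs, was highest in iRGC replicate 2, where Mitf itself was not. Of this sum, Trpm1 alone held 6.14, 17.8 and 0.694 CPM in iRGCs and 1.23, 1.04 and 0.290 CPM in cRGCs. The melanocyte marker Sox10 was at 0 in all libraries, and Kit and Ednrb, which retinal cells also express, were at -0.66 (SE 0.19) and 2.43 (SE 0.37).

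Of the other MiT family genes, Tfe3 was the most abundant, at -0.25 (SE 0.13), and was not called. Tfeb was called higher at 1.78 (SE 0.68, edgeR adjusted p = 0.0667), but its libraries overlapped and the call was lost without iRGC replicate 2. Tfec had 0.433 CPM in iRGC replicate 2 and 0 elsewhere. Among 12 relatives of Otx1, Msx1 and Wfdc1, 3 were tested. Otx2 and Crx, 2 photoreceptor lineage factors, were higher, beside 23.3% of all tested genes, while Wfdc2 at 2.26 (SE 1.22) was not called.

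Markers of blood vessels and blood stood out in iRGC replicate 2, the highest library for Msx1, Bmp4, Otx1 and Wfdc1 but not for Bmp7 or Mitf. The 10 endothelial genes summed to 448, 648 and 436 CPM in iRGCs and 88.7, 109 and 71.8 CPM in cRGCs. Of these genes, 8 were highest in iRGC replicate 2, beside 16.3% of all tested genes. The most abundant was Kdr, with 366, 320 and 418 CPM in iRGCs, which retinal progenitors also express. Cdh5, an adhesion gene that defines endothelium, had 15.2, 81.3 and 0.158 CPM in iRGCs and 0 in all cRGC libraries, and Pecam1 had 9.65, 53.0 and 0.284 CPM in iRGCs. All genes of this list but Kdr and Pecam1 are named after their values were seen. In iRGC replicate 3, where Msx1, Wfdc1 and Bmp4 were lowest of the iRGCs, 6 of the 10 endothelial genes, Cdh5, Pecam1, Tie1, Tek, Emcn and Esam, had at most 0.284 CPM, and the other 4, Kdr, Cldn5, Flt1 and Egfl7, had at least 2.59 CPM and were above every cRGC library.

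All 7 mural cell genes were highest in iRGC replicate 2, beside 16.3% of all tested genes. Their sum was 132, 275 and 106 CPM in iRGCs and 20.8, 31.2 and 22.5 CPM in cRGCs. Notch3 was the most abundant, with 113, 117 and 83.5 CPM in iRGCs and 17.1, 26.7 and 18.6 CPM in cRGCs. This gene made up most of the sum in every library except iRGC replicate 2. Rgs5 had 3.76, 93.8 and 2.24 CPM in iRGCs and at most 0.323 CPM in cRGCs. The erythroid sum, led by the globin gene Hbb-bs, was 12.2, 92.7 and 15.2 CPM in iRGCs and 0, 5.11 and 0.258 CPM in cRGCs. The heme synthesis gene Alas2 had 0.788 to 2.63 CPM in iRGCs and 0 in cRGCs. Hbb-bt had the smallest log2 fold change of the tested genes of the list, 3.52 (SE 1.44). The periocular mesenchyme sum, led by Col1a2, was 22.4, 37.8 and 9.93 CPM in iRGCs and 8.73, 10.4 and 10.2 CPM in cRGCs, with Lum at 0 in every library and Pdgfra at -0.60 (SE 0.39).

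Lens genes summed to 7.30, 10.6 and 3.12 CPM in iRGCs and 1.46, 2.42 and 3.55 CPM in cRGCs, led by Bfsp1, and Crybb1 at 2.88 (SE 1.61) was not called. Microglial genes, led by Csf1r, summed to 13.1, 21.2 and 15.8 CPM in iRGCs and 0.654, 4.18 and 1.45 CPM in cRGCs, with Aif1 at -1.36 (SE 1.45). The parts of vessel, blood, mesenchyme, lens or microglial RNA in the levels of the 6 genes were not tested.

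**Figure D5:**
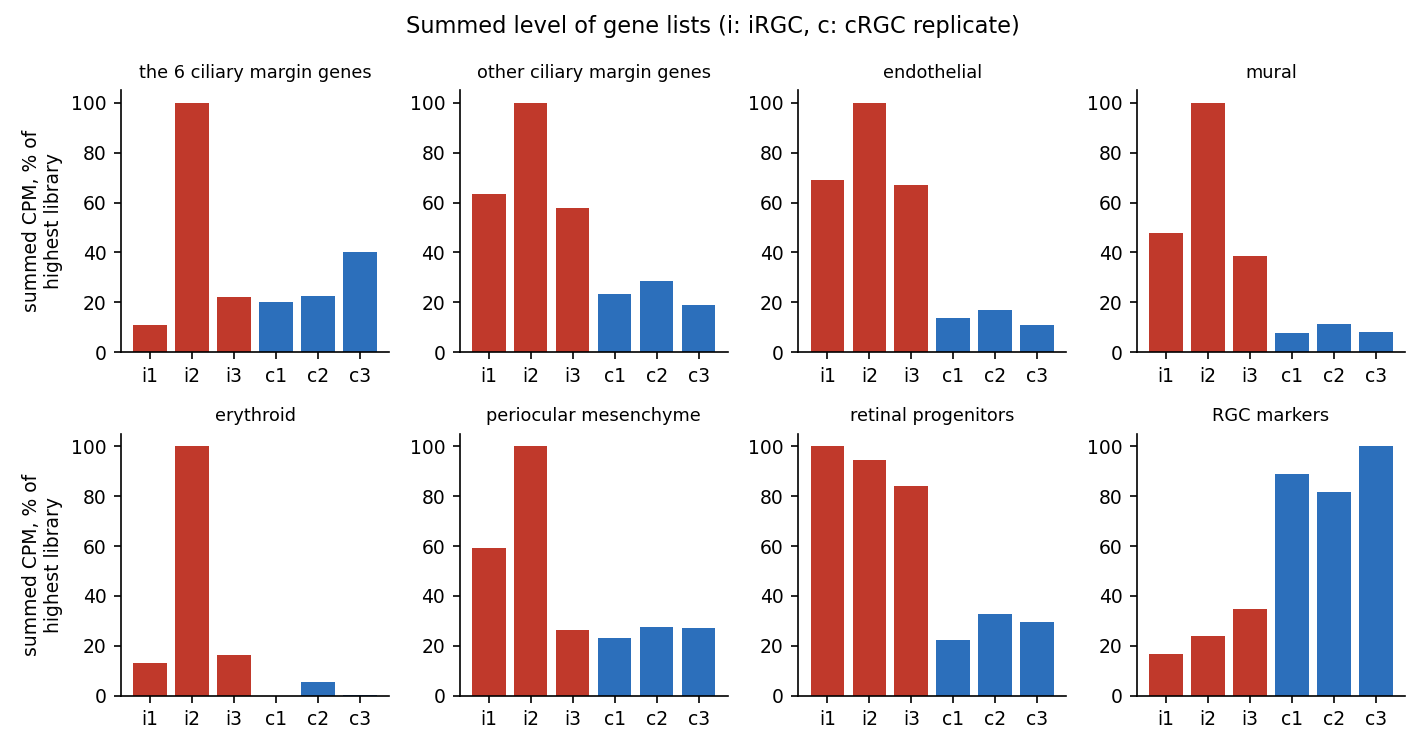
Summed CPM of 8 gene lists in each library, as a percentage of the highest library (vertical axis, bars from 0), for iRGC (red) and cRGC (blue) replicates 1 to 3. The 6 ciliary margin genes and the mural and erythroid lists peak in iRGC replicate 2, at 100%, with iRGC replicate 1 at 11.0%, 48.0% and 13.1%. The other ciliary margin, endothelial and periocular mesenchyme lists also peak there, with iRGC replicate 1 at 63.4%, 69.0% and 59.3%. The progenitor list stays between 84.0% and 100% in the iRGC libraries. Notch3 makes up most of the mural sum outside iRGC replicate 2.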

How the data were processed

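RNA-seq counts of the 6 libraries were analysed; the 13 ATAC-seq samples were not analysed here. The authors aligned reads to mm10 with HISAT2 2.1.0, counted them per gene (Ensembl GRCm38) with HTSeq 0.11.1, and deposited raw counts per gene without normalization. Strand use was not given in the sources used here. Rows without a gene name were left out of library sizes (8.09% to 16.8% no gene, 0.618% to 0.649% ambiguous, 25.9% to 33.0% not unique, of all tallied alignments). Symbols and positions came from GENCODE M21 for 46574 of 47069 genes.

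The main test was that of edgeR 4.0.16 in R 4.3.3 (filterByExpr, TMM, quasi-likelihood test without a block, Benjamini-Hochberg over 15941 genes, adjusted p under 0.1). SEs were the absolute log2 fold change over the square root of F. The biological coefficient of variation was 36.3%, which with 3 libraries per population limits what low counts can show. CPM floors of a count of 0 (3 reads) were 0.0927 to 0.115 and cover counting error only. The fits were tested on simulated data, but no value from those tests is given here.

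The genes and lists were chosen with earlier results of these data known. The text names the 6 genes, all genes of the BMP ligand, receptor and target, MiT and other ciliary margin lists, the most abundant and the most changed gene of each further list, the 3 nearest genes by level over libraries, and genes said to be named after their values were seen. Sox2, Tyr, Slc45a2, Sox10, Lum and Smad4 are likewise named after their values were seen. Alternatives were DESeq2 size factors, upper quartile factors, DESeq2 1.42.0, limma 3.58.1 voom, no filter, a minimum of 10 counts in every library, omission of each library, a replicate block and an adjusted p under 0.05. Promoter sequences came from RefSeq (GRCm38.p6). Python 3.11.15 and matplotlib 3.10.9 made the figures.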

Additional observations from a re-analysis of the deposited data

How the results depend on the processing

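Of 74 recomputed fold changes of the 6 genes, 67 stayed within the spread between libraries, 5 moved beyond it and 2 reversed: Otx1 was -0.37 without iRGC replicate 2 and Mitf 0.31 without iRGC replicate 1. With a library left out, Otx1 ranged from -0.37 to 2.55 and Mitf from -0.76 to 0.31. The 6 genes' median log2 fold change of 2.71 was 0.49 with at least 10 counts in every library, where only 2 of the 6 genes remain, and 0.89 to 3.21 with a library left out. Of 404 recomputed values of 29 called genes, 372 kept their call, 32 in 9 genes lost it and 0 reversed. The count of other ciliary margin genes higher in iRGCs was 5, and 3 by limma voom and with at least 10 counts in every library. The count of pigment genes lower in iRGCs was 0, and 1 by DESeq2, by limma voom and with at least 10 counts in every library, and 0 to 1 with a library left out. The BMP pathway counts were 12 to 14 higher and 7 to 9 lower with a library left out. Over all genes, 3148 to 3563 were higher and 3068 to 4040 lower with a library left out. The causes were not tested. With 3 libraries per population and few reads on Bmp4, Msx1 and Mitf, small changes of these genes were not detectable.

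The populations share replicate numbers 1 to 3. Over all tested genes, the deviations of same-numbered libraries correlated at -0.0142, -0.0446 and -0.0669, against -0.0239 to 0.0701 for the other pairs. A link of same-numbered libraries in a part of the genes was not tested. With the replicate number as a block, 3316 genes were higher and 3435 lower in place of 3707 and 3688, the BMP pathway counts were 12 and 10 in place of 13 and 10, 5 other ciliary margin genes were higher, and the median log2 fold change of the 6 genes was 2.63.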
